A study of Danio rerio with 10 samples.

Results

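Exposure to benzo[a]pyrene (BaP), an aromatic hydrocarbon of fused rings formed in combustion, was compared with control exposure in zebrafish larvae at 96 hours post fertilization (hpf). The comparison took every gene listed in the Ensembl gene table of that age, 18910 genes in 4 of the 10 libraries of the series. The RefSeq gene table, with 12415 genes, and the transcript tables were used for symbols and isoforms that the Ensembl gene table does not hold. The BaP group was 2 libraries of pooled whole larvae of the AB line at 96 hpf, labelled with 50 µg/L BaP. The control group was 2 libraries of pooled whole larvae of the same line and age, whose dose label reads 0.1 mL/L and names no substance. The study also sequenced 3 BaP and 3 control libraries of 3.3 hpf embryos, which were not used here. The labels give neither the start of the exposure nor the number of larvae pooled in a library. They do not say that the replicates came from separate clutches, so a p-value here reflects the variation among 4 libraries, and that variation could be technical.

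BaP is a ligand of the aryl hydrocarbon receptor (AhR), a transcription factor of the bHLH-PAS family that is held in the cytosol by chaperones until it binds a ligand. The bound receptor enters the nucleus, pairs with Arnt and raises the transcription of cytochrome P450 family 1 genes, of conjugating enzymes and of its own repressor, Ahrr. The family 1 enzymes oxidise BaP, and glutathione transferases, UDP-glucuronosyltransferases and sulfotransferases add groups to the products. At 96 hpf the zebrafish larva has a beating heart, moving muscle, pigmented eyes that respond to light, and a liver and pancreas that are starting to work.

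Values are given in CPM, read counts of a gene normalised to the reads that a library had on all listed genes, scaled between libraries by the TMM method and not corrected for gene length, so levels of different genes are not compared. Where both libraries of a group are given, replicate 1 comes before replicate 2. Depth, estimated from the CPM of 1 read, was 15.6 and 17.7 M reads in the BaP libraries, against 13.2 and 16.3 M reads in the control libraries. A value of 1 CPM therefore rested on 15.6 and 17.7 reads in the BaP libraries, against 13.2 and 16.3 reads in the control libraries. The scaling factors were 0.995 and 0.946 in the BaP libraries, against 1.00 and 1.06 in the control libraries. Markers of the tissues of a whole larva were measured in all 4 libraries, with 66 of 70 skeletal muscle symbols, 50 of 61 neuron, 59 of 80 photoreceptor, 50 of 66 lens, 63 of 81 liver and 26 of 44 erythroid symbols listed. BaP replicate 2 stood apart from the other 3 libraries. It differed over 2-fold from BaP replicate 1 in 777 genes (4.11%), where the control replicates differed over 2-fold from each other in 252 genes (1.33%). Results that rest on BaP replicate 2 are therefore given with the values of each library, and the difference between the exposed libraries is described at the end.

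In BaP larvae 72 genes rose and 8 fell, and those that rose most included members of the cytochrome P450 family 1. The 80 genes that passed limma's adjusted p of 0.05 were 0.423% of the 18910 genes tested, and those called higher were 0.381% and those called lower 0.0423%. Before adjustment 2973 genes had a p under 0.05, 1378 of them higher and 1595 lower in BaP larvae. The libraries of all 80 called genes did not overlap between the groups. Without overlap 4879 genes (25.8%) lay higher and 4640 genes (24.5%) lay lower in BaP larvae, so absence of overlap alone sets few genes apart. Choosing genes by p also favours groups that do not overlap, so for genes named by p this is no further result. The median log2 difference over all genes was 0.014. When each library was left out in turn, 49 of the 80 genes were called every time with the scaling factors of all 4 libraries kept, 2 of them lower. With factors recomputed on the 3 libraries left, 20 of the 80 were still called without control replicate 2, and 0 genes were called lower there. The number of genes called was 3425 without BaP replicate 1 and 232 without BaP replicate 2, and on CPM without the scaling it was 38. Where the variance model left out the trend on expression level, cyp1a and cyp1b1 were the 2 genes called. In RNA of whole larvae, more or fewer cells of a type and more or less RNA per cell cannot be told apart, and this holds for every gene below.

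The gene lists here and below were chosen with earlier results of these data known. The share of a list that was called therefore describes the list and tests nothing about it. Of the 14 AhR target genes on the list, 11 were listed in the Ensembl table and 7 of these were called higher, where 0.381% of all genes were. All 11 lay above the control mean, 10 of them with no overlap between the groups (25.8% of all genes), and their median log2 difference was 1.86. The gene cyp1a, whose enzyme hydroxylates BaP and other planar aromatic compounds, stood at 780.1 and 850.3 CPM in BaP larvae, against 16.0 and 15.7 CPM in control larvae. Each BaP library held about as much cyp1a RNA as the other, and each lay far above both control libraries. On the log2(CPM + 0.5) scale the difference was 5.64 (SE 0.12), 49.9-fold higher in BaP larvae (limma adjusted p = 7.83e-07). The expression of cyp1b1, a family member also found in eye and midline tissue, was 28.0 and 26.5 CPM in BaP larvae and 2.43 and 2.03 CPM in control larvae (log2 3.35, SE 0.21, limma adjusted p = 0.00101). Its BaP libraries differed by less than its fold change by a wide margin, and BaP replicate 2 was the lower of the pair.

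The fish genes cyp1c1 and cyp1c2 have no counterpart in mammals. Transcripts of cyp1c1 measured 180.5 and 227 CPM in BaP larvae, against 23.3 and 24.5 CPM in control larvae, and the log2 difference was 3.06 (SE 0.14, limma adjusted p = 2.51e-04). Those of cyp1c2 measured 23.7 and 29.5 CPM in BaP larvae, against 6.30 and 7.55 CPM in control larvae (log2 1.87, SE 0.20, limma adjusted p = 0.0102). In both genes BaP replicate 2 was the higher exposed library and the groups stayed apart. The 2 genes are close copies of each other, and reads could have been split between them. The remaining family 1 member, cyp1d1, which is known in fish for weak or absent induction by AhR ligands, stood at 18.04 and 24.8 CPM in BaP larvae, against 19.2 and 21.9 CPM in control larvae. Its groups overlapped, its log2 difference was 0.05 (SE 0.19, limma adjusted p = 0.925), and the sign turned without BaP replicate 2 (-0.18), without control replicate 1 (-0.047), on CPM as deposited (-0.041) and in the RefSeq gene table (-0.0074).

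Outside the family, the forkhead factor genes foxq1a and foxq1b, known as targets of AhR in zebrafish larvae, also rose. For foxq1a the values were 75.7 and 60.3 CPM in BaP larvae, against 12.9 and 16.6 CPM in control larvae (log2 2.17, SE 0.18, limma adjusted p = 0.00426). For foxq1b they were 19.01 and 22.6 CPM in BaP larvae and 8.35 and 6.42 CPM in control larvae (log2 1.44, SE 0.21, limma adjusted p = 0.0367), a call that was lost without control replicate 2 and when the deposited CPM were not rescaled. BaP replicate 2 was the lower exposed library for foxq1a and the higher for foxq1b. The sulfotransferase gene sult6b1 was at 217 and 237 CPM in BaP larvae, against 62.7 and 61.5 CPM in control larvae (log2 1.86, SE 0.12, limma adjusted p = 0.00101). BaP replicate 2 was again the higher exposed library, and the control libraries were nearly equal. The other 3 members were not called. The quinone reductase gene nqo1 was at 80.8 and 106 CPM in BaP larvae, against 64.2 and 56.1 CPM in control larvae (log2 0.62, limma adjusted p = 0.185). The ADP-ribosyltransferase gene tiparp, a feedback inhibitor of AhR, was at 48.0 and 52.4 CPM in BaP larvae, against 37.5 and 31.7 CPM in control larvae (log2 0.53, limma adjusted p = 0.198). For the UDP-glucuronosyltransferase entry ugt1ab, the values were 99.8 and 163 CPM in BaP larvae and 73.7 and 83.2 CPM in control larvae, and most of the distance lay in BaP replicate 2. Its log2 difference was 0.70 (limma adjusted p = 0.230). The RefSeq entry of that symbol held lower values, 6.25 and 3.24 CPM in BaP larvae, against 4.39 and 10.4 CPM in control larvae. The groups of that entry overlapped and its log2 difference was -0.54 (SE 0.43). The direction of ugt1ab thus differed between the annotations.

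**Figure D1:**
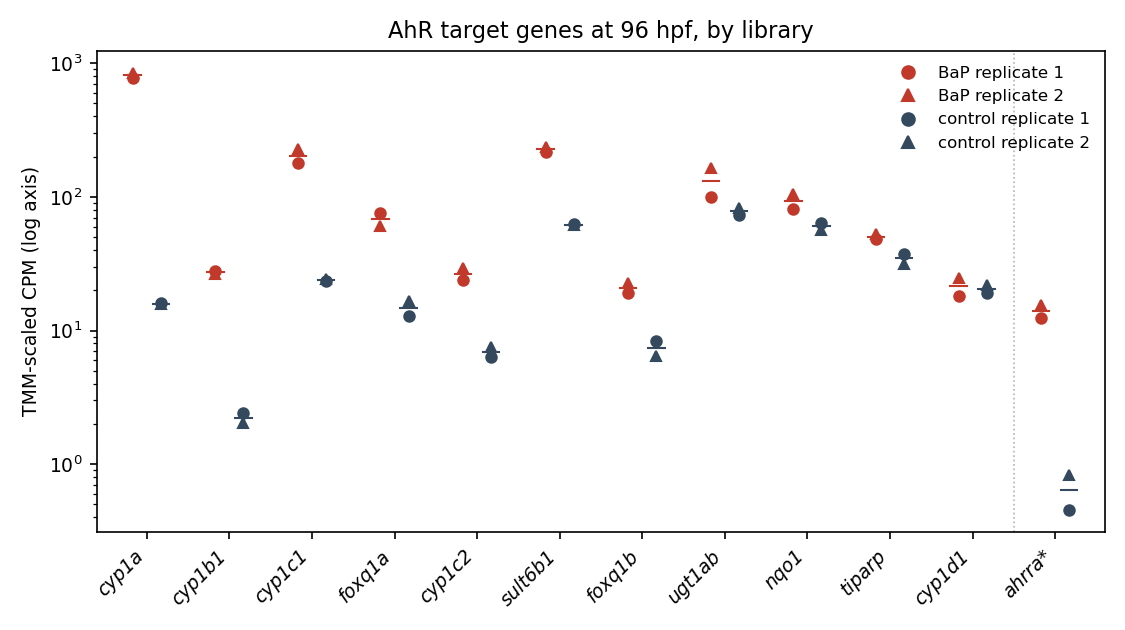
AhR target genes by library. The vertical axis is TMM-scaled CPM on a log axis. Each gene has its 2 BaP libraries at left and its 2 control libraries at right, circles for replicate 1 and triangles for replicate 2, with a line at each group mean. Genes run from the largest log2 difference (cyp1a, 5.64) to the smallest (cyp1d1, 0.05), and ahrra, marked with an asterisk, comes from the RefSeq table.

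Ahrr is the repressor that AhR itself induces, and its gene ahrra is listed in the RefSeq table only. It stood at 12.4 and 15.5 CPM in BaP larvae, against 0.454 and 0.833 CPM in control larvae. Both control libraries held few reads of it, so the fold change is uncertain, and on the tested scale the log2 difference was 3.67 (SE 0.30, limma adjusted p = 0.00239 over the 12415 RefSeq genes). The receptors and their partners were not called, with 0 of 8 measured members past the threshold, 5 above and 3 below control. The main larval receptor gene, ahr2, was at 101 and 118 CPM in BaP larvae and 75.3 and 75.9 CPM in control larvae (log2 0.53, limma adjusted p = 0.178). The partner gene arnt was at 6.61 and 4.19 CPM in BaP larvae, against 9.57 and 11.4 CPM in control larvae (log2 -0.92, limma adjusted p = 0.215). Both genes had groups that did not overlap, in opposite directions. The paralogs ahr1b and arnt2 had log2 differences of -0.64 and -0.38.

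Among the cytochrome P450 genes outside family 1, cyp3a65 and cyp2x7 rose, 2 of 48 measured members, where 0.381% of all genes were called higher. Of the 48, 42 lay above control with a median log2 difference of 0.30. The gene cyp3a65, a larval member of the drug-metabolising family 3, was at 212 and 180.3 CPM in BaP larvae, against 66.7 and 69.9 CPM in control larvae (log2 1.51, SE 0.13, limma adjusted p = 0.00456). For cyp2x7 the values were 7.90 and 5.202 CPM in BaP larvae and 0.380 and 0.626 CPM in control larvae, with few reads in either control library (log2 2.80, SE 0.32, limma adjusted p = 0.0146). In both genes BaP replicate 1 was the higher exposed library. The list as a whole leaned the other way within the exposed group, with a median difference from the control mean of 0.20 in BaP replicate 1 and 0.45 in BaP replicate 2. The next members by p, cyp2n13 and cyp3c1, had log2 differences of 0.75 and 0.56 and were not called. The cytochrome b5 gene cyb5a, whose protein passes electrons to P450 enzymes, is on no list and was named after its values were seen. It rose to 153 and 175 CPM in BaP larvae, against 62.4 and 60.1 CPM in control larvae (log2 1.41, SE 0.13, limma adjusted p = 0.00457).

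Genes of conjugation and transport mostly lay above control, 48 of 56 measured members. The called genes sult6b1, gstp1 and gstp2 were placed on other lists. Of this list gsto2 was the 1 member called, where 0.381% of all genes were called higher. This omega-class glutathione transferase gene was at 75.5 and 101 CPM in BaP larvae, against 41.5 and 37.4 CPM in control larvae (log2 1.14, SE 0.16, limma adjusted p = 0.0367), a call that was lost on CPM as deposited and, with factors recomputed, without control replicate 2. The alpha-class gene gstal was at 196 and 298 CPM in BaP larvae and 120.3 and 120.1 CPM in control larvae (log2 1.01, limma adjusted p = 0.0923), and zgc:158387, which RefSeq names mgst3b, a microsomal transferase, at 146 and 211 CPM in BaP larvae, against 89.96 and 86.3 CPM in control larvae (log2 0.99, limma adjusted p = 0.0760). Both missed the threshold with groups that did not overlap, and BaP replicate 2 was the higher exposed library. For the UDP-glucuronosyltransferases, ugt1b4, which is not on this list, rose to 90.4 and 123 CPM in BaP larvae, against 40.7 and 36.4 CPM in control larvae (log2 1.44, SE 0.17, limma adjusted p = 0.0146). The RefSeq table also listed ugt1b1, at 84.8 and 104 CPM in BaP larvae and 33.0 and 30.4 CPM in control larvae (log2 1.55, SE 0.15, limma adjusted p = 0.00410 over RefSeq genes). Members of this family share exons, and reads could be counted to more than 1 of them. The organic anion transporter gene slc22a7a, named after its values were seen, was called at 64.7 and 56.1 CPM in BaP larvae, against 29.8 and 30.6 CPM in control larvae (log2 0.99, SE 0.14, limma adjusted p = 0.0340). Its call was lost on CPM as deposited and without either control library.

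Prostaglandin genes split, with 2 of 19 members called higher, where 0.381% of all genes were, and 12 of 19 above control. The lipocalin-type prostaglandin D synthase gene ptgdsb stood at 763 and 802 CPM in BaP larvae, against 199.7 and 208 CPM in control larvae (log2 1.94, SE 0.12, limma adjusted p = 0.00101). Its neighbour on the chromosome, zgc:153154, which RefSeq names ptgdsb.2, stood at 125 and 155 CPM in BaP larvae, against 36.6 and 43.9 CPM in control larvae (log2 1.78, SE 0.15, limma adjusted p = 0.00456). In each gene BaP replicate 2 was the higher exposed library and no library overlapped the other group, and how the deposited tables treat reads shared by this pair is not given in the sources used here. PTGR1 (2 of 2), a prostaglandin reductase gene that inactivates prostaglandins and leukotrienes, is not on the list and was called at 27.4 and 35.6 CPM in BaP larvae, against 4.72 and 4.13 CPM in control larvae (log2 2.69, SE 0.20, limma adjusted p = 0.00283). The list's own reductase entries, named after their values were seen, were not called. The entry ptgr1 was at 49.1 and 66.9 CPM in BaP larvae, against 38.3 and 52.6 CPM in control larvae (log2 0.35, limma adjusted p = 0.418). Its groups overlapped, as did those of PTGR2 (log2 -0.05).

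Of the 29 measured members of the Nrf2 and antioxidant list 6 were called higher, where 0.381% of all genes were. Of the 29, 27 lay above control with a median log2 difference of 0.47. The members not above control were hmox1 and srxn1, each with overlapping groups and a log2 difference of -0.05. The members gclm and txnrd1 had log2 differences of 0.21 and 0.26 and were not called. These 4 genes were named after their values were seen. Nrf2 is the transcription factor that electrophiles and oxidants release from Keap1, and its targets supply glutathione, thioredoxin and NADPH-dependent reductases. The peroxiredoxin gene prdx1 was at 83.9 and 88.3 CPM in BaP larvae, against 31.8 and 31.2 CPM in control larvae (log2 1.43, SE 0.12, limma adjusted p = 0.00456). The pi-class glutathione transferase gene gstp1 was at 677 and 814 CPM in BaP larvae, against 265 and 246 CPM in control larvae (log2 1.53, SE 0.14, limma adjusted p = 0.00491). Its paralog gstp2 was at 20.6 and 15.2 CPM in BaP larvae, against 5.83 and 6.56 CPM in control larvae (log2 1.45, SE 0.22, limma adjusted p = 0.0418). No exposed library of these 3 genes came near a control library, and the higher exposed library was BaP replicate 2 for prdx1 and gstp1 and BaP replicate 1 for gstp2.

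The glutathione reductase gene gsr was at 56.9 and 58.0 CPM in BaP larvae and 32.0 and 29.7 CPM in control larvae (log2 0.89, SE 0.13, limma adjusted p = 0.0389). The thioredoxin gene txn was at 58.2 and 69.4 CPM in BaP larvae, against 33.1 and 26.1 CPM in control larvae (log2 1.097, SE 0.16, limma adjusted p = 0.0418). The sixth called member is si:dkey-3d18.4, which RefSeq names nfe2l2b, a paralog of the Nrf2 gene itself, at 10.8 and 10.5 CPM in BaP larvae, against 3.72 and 3.82 CPM in control larvae (log2 1.38, SE 0.22, limma adjusted p = 0.0499). Its 4 libraries were close within groups, but the call sat at the threshold, was kept under 3 of 12 other settings on the Ensembl gene table, with scaling factors kept where a library was left out, and was not made under its RefSeq symbol (log2 1.31, limma adjusted p = 0.0813). The median of the list was 0.29 in BaP replicate 1 and 0.62 in BaP replicate 2. The number called was 2 on CPM as deposited, and it changed with the library left out. The calls of gsr, txn and gstp2 were lost on CPM as deposited and without control replicate 2 with factors recomputed, and those of gsr and gstp2 also without control replicate 1. The methionine sulfoxide reductase gene msrb1a and the carbonyl reductase-like gene cbr1l, on no list and named after their values were seen, were also called, with log2 differences of 0.99 and 1.198 (SE 0.15 and 0.17). The call was lost in 7 of 18 alternative settings for msrb1a and 3 of 17 for cbr1l. The settings in such counts, here and below, include the crossed replicate block and the fits without a BaP library. No call of any gene was lost in those. Each library left out also enters both with factors kept and with factors recomputed, so these counts overstate how well a call holds.

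In the cytosolic heat shock list 29 of 32 members lay above control with a median log2 difference of 0.18. Of the 32, 1 was called higher, where 0.381% of all genes were. The inducible chaperone gene hsp70.2 was at 45.7 and 70.28 CPM in BaP larvae, against 15.9 and 17.0 CPM in control larvae (log2 1.75, SE 0.21, limma adjusted p = 0.0155), and BaP replicate 2 was the higher exposed library by 0.61 on the log2 scale. Its copy hsp70.3 showed the same order, 46.1 and 83.2 CPM in BaP larvae and 25.1 and 25.1 CPM in control larvae, without a call (log2 1.29, limma adjusted p = 0.104). Reads could be split between these near-identical genes. The cochaperone gene dnajb1b had 26.4 and 23.3 CPM in BaP larvae, against 12.1 and 9.60 CPM in control larvae (log2 1.17, limma adjusted p = 0.0527), and hsp90aa1.1, an Hsp90 gene of stressed cells and developing muscle, 429 and 374 CPM in BaP larvae, against 209 and 241 CPM in control larvae (log2 0.83, limma adjusted p = 0.0611). DNAJA4, another Hsp40 cochaperone gene, which is on no list and was named after its values were seen, was called with a log2 difference of 0.89 (SE 0.13). Its call was lost in 7 of 17 alternative settings. None of the 30 endoplasmic reticulum stress genes was called, although 29 lay above control with a median of 0.21. Of 27 p53 targets 20 lay above control and none was called, with a median of 0.25, and gadd45aa, ccng2 and mdm2 had log2 differences of 0.78, 0.50 and 0.49. The target cdkn1a, named after its values were seen, lay lower without overlap (log2 -0.37). It was at 30.4 and 24.5 CPM in BaP larvae, against 34.0 and 36.9 CPM in control larvae. The 46 DNA repair genes had a median of 0.04, 25 above control, and none was called.

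Of the 43 measured genes of retinoid handling and the visual cycle 7 were called higher, where 0.381% of all genes were. Of the 43, 36 lay above control with a median log2 difference of 0.38. The visual cycle regenerates the chromophore of the opsins, and much of it takes place in the retinal pigment epithelium behind the photoreceptors. The isomerase gene rpe65a stood at 152 and 103 CPM in BaP larvae, against 25.3 and 21.6 CPM in control larvae (log2 2.395, SE 0.19, limma adjusted p = 0.00366). The retinaldehyde-binding protein gene rlbp1b stood at 50.8 and 32.8 CPM in BaP larvae, against 9.03 and 6.83 CPM in control larvae (log2 2.31, SE 0.24, limma adjusted p = 0.00966). The retinol dehydrogenase gene rdh5 stood at 18.9 and 15.2 CPM in BaP larvae, against 3.57 and 3.24 CPM in control larvae (log2 2.16, SE 0.22, limma adjusted p = 0.00863). In these 3 genes of the pigment epithelium BaP replicate 1 was the higher exposed library, and no exposed library came near a control library.

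LRAT, which esterifies retinol for storage, stood at 8.15 and 5.62 CPM in BaP larvae, against 0.455 and 1.0996 CPM in control larvae (log2 2.56, SE 0.35, limma adjusted p = 0.0328). The RefSeq symbol zgc:194355, whose current name is lratb.2, had 9.58 and 6.45 CPM in BaP larvae and 0.544 and 1.32 CPM in control larvae and was called as well (log2 2.60, SE 0.36, limma adjusted p = 0.0279 over RefSeq genes). Whether it is the same gene as the LRAT entry was not tested, so it is not counted as a further gene. The opsin gene rgrb, whose product is a photoisomerase of the pigment epithelium and Müller glia, was at 73.5 and 75.2 CPM in BaP larvae, against 35.8 and 32.3 CPM in control larvae (log2 1.12, SE 0.13, limma adjusted p = 0.0146). The exposed libraries of rgrb were nearly equal, while those of LRAT differed by -0.50 on the log2 scale (BaP replicate 2 minus BaP replicate 1). The gene irbp, now named rbp3, whose protein carries retinoids between photoreceptors and pigment epithelium, was at 154 and 141 CPM in BaP larvae, against 62.8 and 72.2 CPM in control larvae (log2 1.13, SE 0.13, limma adjusted p = 0.0146). The retinol transporter gene stra6 was at 34.8 and 36.4 CPM in BaP larvae, against 17.8 and 17.8 CPM in control larvae (log2 0.98, SE 0.14, limma adjusted p = 0.0381). The stra6 call was lost on CPM as deposited and without either control library, and those of irbp and LRAT were lost on CPM as deposited. The list had 4 called members on CPM as deposited, and most of its calls were lost without control replicate 2 when the factors were recomputed.

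Photoreceptor genes did not follow. Of 59 measured members, 22 lay above control and 37 below, with a median log2 difference of -0.13. The 1 called member was higher, where 0.381% of all genes were called higher. That gene, pde6h, which encodes the inhibitory subunit of the cone phosphodiesterase, was at 267 and 359.8 CPM in BaP larvae, against 152 and 135 CPM in control larvae (log2 1.11, SE 0.16, limma adjusted p = 0.0387), and its call was lost on CPM as deposited. Below control without overlap lay 26 members, 44.1% of the list, where 24.5% of all genes did. The rod arrestin gene saga was at 48.7 and 46.8 CPM in BaP larvae, against 73.2 and 81.0 CPM in control larvae (log2 -0.68, limma adjusted p = 0.0882). The retinal guanylate cyclase gene gc3 was at 39.1 and 34.9 CPM in BaP larvae, against 54.1 and 58.8 CPM in control larvae (log2 -0.60, limma adjusted p = 0.160). Its activator gene guca1a was at 0.835 and 1.38 CPM in BaP larvae, against 3.19 and 4.11 CPM in control larvae (log2 -1.38, limma adjusted p = 0.166). In saga, gc3 and guca1a both exposed libraries lay below both control libraries, and none of the 3 was called. The cone channel subunit gene cnga3a, at 8.67 and 5.62 CPM in BaP larvae and 14.3 and 12.9 CPM in control larvae, showed the same order (log2 -0.91, limma adjusted p = 0.192).

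Melanin genes lay above control in 17 of 18 measured members, with a median log2 difference of 0.54, and none was called. Melanin is made in the melanophores of the skin and in the retinal pigment epithelium. The dopachrome tautomerase gene dct stood at 122 and 78.04 CPM in BaP larvae, against 44.4 and 37.2 CPM in control larvae (log2 1.25, limma adjusted p = 0.0669). The related enzyme gene tyrp1b stood at 292 and 226 CPM in BaP larvae, against 133 and 145 CPM in control larvae (log2 0.88, limma adjusted p = 0.0683). The melanosome matrix gene pmela stood at 235 and 167 CPM in BaP larvae, against 114 and 116 CPM in control larvae (log2 0.78, limma adjusted p = 0.144). In all 3 genes the groups did not overlap, and BaP replicate 1 was the higher exposed library. Summed over the 18 members, the list came to 935 and 711 CPM in BaP larvae, against 487 and 494 CPM in control larvae. When single libraries were left out, whether any member was called depended on the library. The genes rpe65a, rlbp1b, rdh5, dct, tyrp1b and pmela thus lay in the same direction and in the same order of exposed libraries. The called genes LRAT and irbp shared this order. In the called genes rgrb and stra6 BaP replicate 2 was slightly the higher, as in some melanin genes, such as slc45a2 and mlpha. The part of pigment cell number in the visual cycle result was not tested. Lens genes lay above control in 46 of 50 members with a median of 0.15 and no call, a difference near the median of control replicate 1 against the control mean, 0.12.

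**Figure D2:**
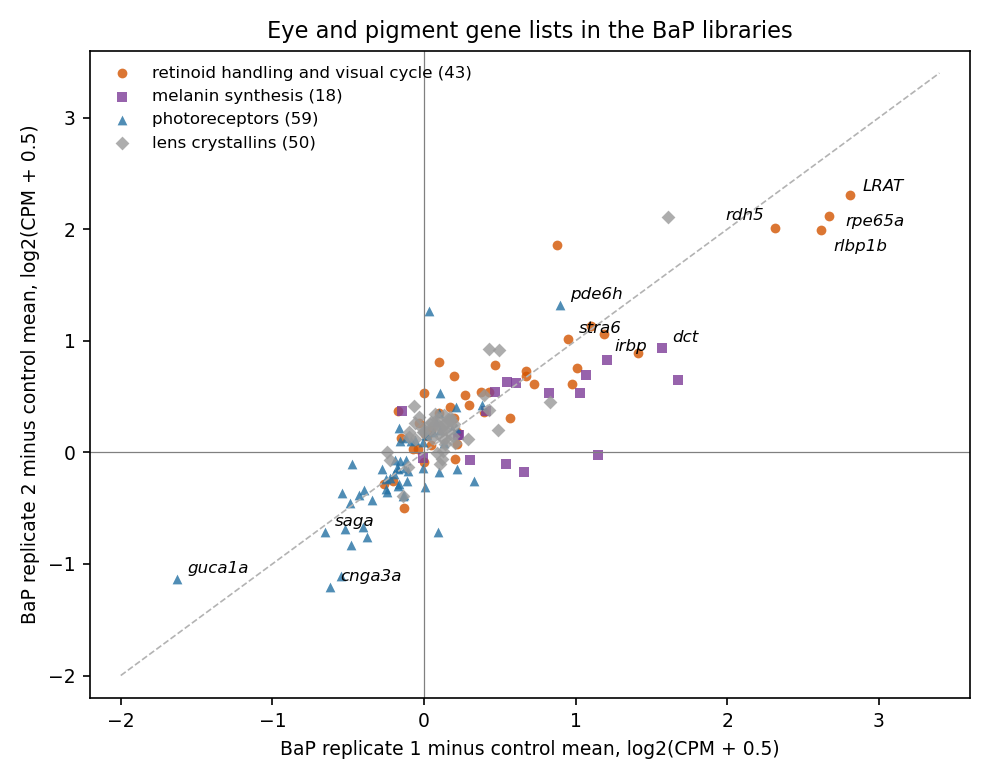
Eye and pigment genes in the exposed libraries. The horizontal axis is the difference of BaP replicate 1 from the control mean and the vertical axis that of BaP replicate 2, both on the log2(CPM + 0.5) scale, with 1 point per gene and a dashed line where the exposed libraries are equal. LRAT, rpe65a, rlbp1b and rdh5 lie at the upper right, most melanin genes lie right of the line, most lens genes gather near 0, and saga, cnga3a and guca1a lie at the lower left.

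Of the 8 genes that fell, 3 belong to the collagen matrix of connective tissue. The fibril-associated collagen gene col12a1 stood at 25.9 and 19.1 CPM in BaP larvae, against 49.6 and 60.3 CPM in control larvae (log2 -1.28, SE 0.18, limma adjusted p = 0.0367). The periostin gene postna, whose protein binds collagen in fascia and healing tissue, stood at 41.0 and 46.3 CPM in BaP larvae, against 91.1 and 76.4 CPM in control larvae (log2 -0.93, SE 0.14, limma adjusted p = 0.0461). The gene p4ha1a, which encodes a catalytic subunit of the enzyme that hydroxylates collagen prolines, stood at 5.34 and 3.97 CPM in BaP larvae, against 12.8 and 17.9 CPM in control larvae (log2 -1.62, SE 0.25, limma adjusted p = 0.0466). Both exposed libraries lay below both control libraries in each, with BaP replicate 2 the lower for col12a1 and p4ha1a and the higher for postna. The calls of col12a1 and p4ha1a were lost when control replicate 2 was left out and when the deposited CPM were not rescaled, and that of postna without control replicate 1. Over all alternative settings, the call was lost in 4 of 17 for col12a1, 7 of 18 for p4ha1a and 6 of 17 for postna.

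The keratin gene krt15 stood at 155 and 144 CPM in BaP larvae, against 337 and 275 CPM in control larvae (log2 -1.03, SE 0.14, limma adjusted p = 0.0316), 2.04-fold lower in BaP larvae. It is a type I keratin, as is krt1-19d, which rose to 134 and 137 CPM in BaP larvae, against 39.7 and 45.2 CPM in control larvae (log2 1.66, SE 0.13, limma adjusted p = 0.00283). These were the 2 called members of the 39 epidermis and keratin genes measured, where 0.423% of all genes were called. Of the 39, 31 lay above control with a median of 0.27. The circadian repressor gene per1b stood at 66.3 and 64.2 CPM in BaP larvae, against 120.3 and 120.0 CPM in control larvae (log2 -0.88, SE 0.12, limma adjusted p = 0.0315). The libraries of per1b were almost equal within each group. The calls of krt15 and per1b were lost without control replicate 1, and that of per1b also without control replicate 2.

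The other 3 genes that fell are not protein-coding genes with a known role. The ribosomal RNA entry 5_8S_rRNA was at 1.74 and 1.08 CPM in BaP larvae, against 8.05 and 10.9 CPM in control larvae (log2 -2.396, SE 0.30, limma adjusted p = 0.0211). How much ribosomal RNA the preparation left in each library was not tested, so this entry is not read as a level in the larvae. The clone-named entry CABZ01045617.2 was at 0.193 and 0.419 CPM in BaP larvae, against 6.61 and 9.43 CPM in control larvae (log2 -3.397, SE 0.32, limma adjusted p = 0.00620). These were the 2 lower genes called without each single library when the scaling factors were kept, and both calls were lost without control replicate 2 when the factors were recomputed. In addition, their exposed libraries held so few reads that the size of the fold change depends on the pseudocount. The entry si:ch211-162i8.3 was at 1.91 and 2.23 CPM in control larvae, while both BaP libraries were listed below the value of 1 read, which was 0.0639 CPM for BaP replicate 1 and 0.0565 CPM for BaP replicate 2, so no fold is given (limma adjusted p = 0.0367). The RefSeq table added 2 lower genes absent by symbol from the Ensembl table, both nearly silent in the BaP libraries. One of them, zgc:194878, was at 0.0260 and 0.0710 CPM in BaP larvae, against 7.86 and 9.43 CPM in control larvae (limma adjusted p = 0.00161 over RefSeq genes). The other, zgc:136538, which RefSeq now names drl, a zinc finger gene of the lateral mesoderm and early blood, was at 0.0911 and 0.154 CPM in BaP larvae, against 2.93 and 1.995 CPM in control larvae (limma adjusted p = 0.0474).

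**Figure D3:**
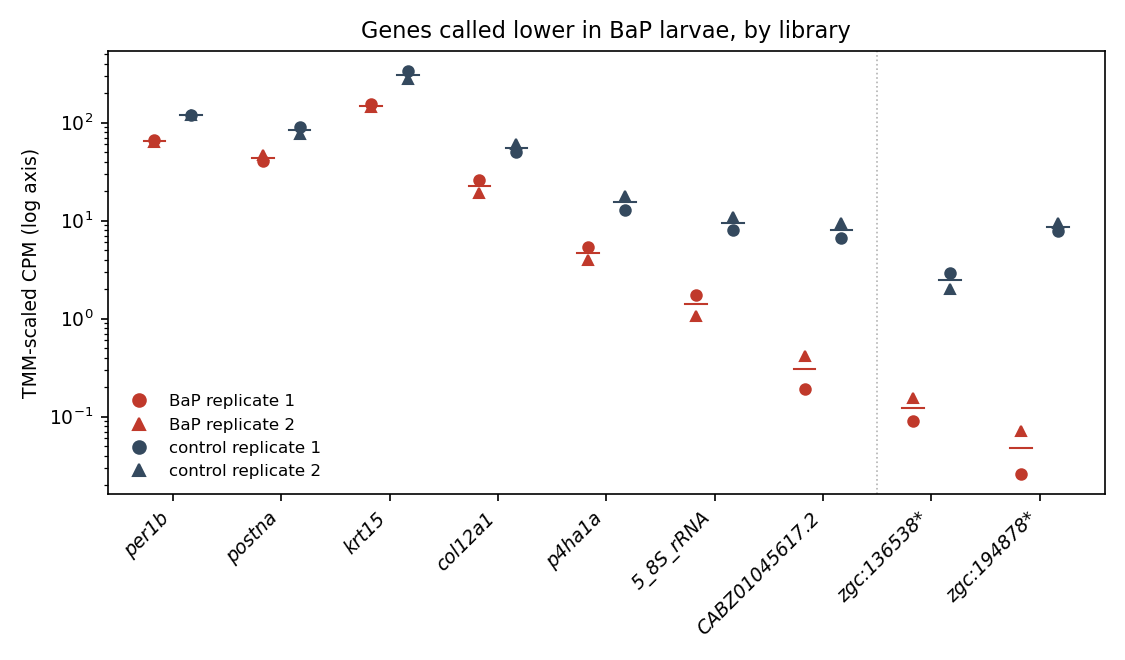
Genes called lower in BaP larvae, by library. The vertical axis is TMM-scaled CPM on a log axis. Each gene has its 2 BaP libraries at left and its 2 control libraries at right, circles for replicate 1 and triangles for replicate 2, with a line at each group mean. Genes run from the smallest to the largest difference (per1b to CABZ01045617.2), the 2 genes with an asterisk come from the RefSeq table, and in every gene drawn both BaP libraries lie below both control libraries.

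The collagen and matrix list as a whole lay lower. Of 101 measured members, 80 lay below control, 59 of them without overlap (58.4% of the list, 24.5% of all genes), and 9 lay above without overlap. The median log2 difference was -0.23, and it was nearly the same in both exposed libraries, -0.25 in BaP replicate 1 and -0.25 in BaP replicate 2. Before adjustment 39 members had a p under 0.05 and lay lower and 2 lay higher. After it 3 were called lower, where 0.0423% of all genes were. The number called was 1 on CPM as deposited, 1 with a pseudocount of 0.1 and 1 among genes with a mean of at least 5 CPM. It also changed with the library left out, and no call of the list was kept without control replicate 2 with factors recomputed. The microfibril gene fbn2b was at 41.7 and 29.1 CPM in BaP larvae, against 68.6 and 91.8 CPM in control larvae (log2 -1.18, limma adjusted p = 0.0744). The basement membrane collagen gene col4a1 was at 30.1 and 19.4 CPM in BaP larvae, against 50.3 and 68.9 CPM in control larvae (log2 -1.27, limma adjusted p = 0.0839). The entry COL22A1, a collagen of muscle-tendon junctions, was at 8.35 and 4.78 CPM in BaP larvae, against 16.9 and 23.2 CPM in control larvae (log2 -1.57, limma adjusted p = 0.0780). A separate entry, COL12A1, was at 108 and 116 CPM in BaP larvae, against 173 and 188 CPM in control larvae (log2 -0.68, limma adjusted p = 0.0760). In these 4 genes the groups did not overlap, BaP replicate 2 was the lower exposed library in all but COL12A1, and none was called. Summed, the list came to 24514 and 24719.5 CPM in BaP larvae, against 27866 and 28449.9 CPM in control larvae. Cartilage and bone genes lay on both sides of control, 12 above and 18 below of 30, with a median of -0.09 and no call. The aggrecan gene acanb, at 10.3 and 8.01 CPM in BaP larvae and 17.2 and 18.403 CPM in control larvae, had a log2 difference of -0.93 (limma adjusted p = 0.134), the link protein gene hapln1a one of -0.51 and the chondrogenic factor gene sox9b one of -0.98, while the bone matrix gene spp1 had 0.999.

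Clock genes lay below control in 28 of 42 members, with a median log2 difference of -0.21. The 1 call was per1b, where 0.0423% of all genes were called lower. Besides per1b, the period gene per3 was at 12.8 and 7.12 CPM in BaP larvae, against 20.7 and 29.2 CPM in control larvae (log2 -1.32, limma adjusted p = 0.146). The Rev-erb family gene nr1d4a, a repressor of the clock loop, was at 1.86 and 1.49 CPM in BaP larvae, against 4.71 and 4.05 CPM in control larvae (log2 -1.17, limma adjusted p = 0.174). Both had groups that did not overlap, as had 24 members (57.1%, where 24.5% of all genes did) in the lower and 12 (28.6%, where 25.8% of all genes did) in the higher direction. The hour of day at which each group was collected is not given in the labels, and its part was not tested. The cryptochrome gene cry2a lay in the other direction in this table, at 404 and 369 CPM in BaP larvae and 283 and 253 CPM in control larvae (log2 0.53, limma adjusted p = 0.178), and this turned to -0.052 in the RefSeq gene table.

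Erythroid genes lay below control in 22 of 26 measured members, with no call and a median log2 difference of -0.26. The band 3 anion exchanger gene slc4a1a was at 46.8 and 59.0 CPM in BaP larvae, against 89.9 and 96.8 CPM in control larvae (log2 -0.82, limma adjusted p = 0.0768). The transferrin receptor gene tfr1a, which takes up iron for haem, was at 6.10 and 3.41 CPM in BaP larvae, against 10.8 and 17.2 CPM in control larvae (log2 -1.48, limma adjusted p = 0.146), and the second receptor entry TFRC (2 of 3) at 31.6 and 35.6 CPM in BaP larvae, against 57.6 and 73.1 CPM in control larvae (log2 -0.94, limma adjusted p = 0.0669). In the RefSeq table tfr1b, named after its values were seen, was called lower, at 46.01 and 48.5 CPM in BaP larvae, against 81.5 and 105 CPM in control larvae (log2 -0.96, SE 0.15, limma adjusted p = 0.0480 over RefSeq genes). It was not called in the Ensembl table. Neither TFRC (2 of 3) nor tfr1b is on the erythroid list. The erythroid factor gene klfd, now klf1, had a log2 difference of -1.203 and the membrane skeleton gene epb41b one of -0.52, both without a call. BaP replicate 1 held most of the list's difference, with a median of -0.48 against -0.08 in BaP replicate 2. Summed, the list came to 2869.5 and 3666 CPM in BaP larvae, against 4599.8 and 3032 CPM in control larvae, so the controls differed between themselves by more than the group means did.

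Among the next genes by p on the lower side, none called, vps39, a component of the complex that fuses vesicles with lysosomes, was at 2.76 and 2.57 CPM in BaP larvae, against 7.14 and 10.1 CPM in control larvae (log2 -1.51, limma adjusted p = 0.0724). Over the alternative settings and annotations its log2 difference ran from -1.75 to -0.205, so its size is uncertain. The nucleolar gene heatr1, needed to transcribe ribosomal RNA, was at 20.4 and 20.7 CPM in BaP larvae, against 34.9 and 45.9 CPM in control larvae (log2 -0.94, limma adjusted p = 0.0780). The separate entry HEATR1 (2 of 2) was called in the other direction, at 14.7 and 12.9 CPM in BaP larvae, against 4.67 and 3.97 CPM in control larvae (log2 1.57, SE 0.21, limma adjusted p = 0.0323). The 2 entries carry the same name in opposite directions, and the call of HEATR1 (2 of 2) was lost without control replicate 2. The chromatin protein gene hmga2, active in growing embryonic tissue, was at 13.9 and 10.3 CPM in BaP larvae, against 23.0 and 29.8 CPM in control larvae (log2 -1.097, limma adjusted p = 0.101).

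Genes of the exocrine pancreas and gut list lay above control in 46 of 53 measured members, with a median log2 difference of 0.49. Besides digestive enzymes this list holds hormones such as ins, transporters such as slc5a1 and transcription factors such as ptf1a. Of the 53, 5 were called higher, where 0.381% of all genes were. The amylase genes zgc:92137, which RefSeq names amy2al2, and amy2a were at 29.4 and 40.2 CPM and 49.1 and 50.1 CPM in BaP larvae, against 8.73 and 9.81 CPM and 20.4 and 26.7 CPM in control larvae (log2 1.84 and 1.07, SE 0.20 and 0.16). The chymotrypsin-like gene ctrl was at 110.1 and 145 CPM in BaP larvae, against 57.2 and 57.9 CPM in control larvae (log2 1.13, SE 0.15, limma adjusted p = 0.0319). The trypsinogen gene zgc:66382, now prss59.1, was at 204 and 215 CPM in BaP larvae, against 108 and 123 CPM in control larvae (log2 0.86, SE 0.12, limma adjusted p = 0.0381). These 4 enzymes of the pancreas kept their exposed libraries above both controls. The fructose transporter gene slc2a5 of the gut was at 3.27 and 8.31 CPM in BaP larvae, against 0.152 and 0.463 CPM in control larvae (log2 2.86, SE 0.45, limma adjusted p = 0.0485). It was the 1 called gene whose exposed libraries were over 2-fold apart, and its call was lost with the other scalings, with both other pseudocounts and with a robust spread. The list had 3 called members with median-ratio scaling and 1 with no scaling. The number also changed with the library left out, and no call of the list was kept without control replicate 2 with factors recomputed. With no scaling the calls of ctrl, amy2a and zgc:66382 were among those lost. The median of the list was 0.40 in BaP replicate 1 and 0.79 in BaP replicate 2. Chymotrypsinogen ctrb1, named after its values were seen, was called in the RefSeq table at 474 and 538 CPM in BaP larvae, against 273 and 296 CPM in control larvae (log2 0.83, SE 0.13, limma adjusted p = 0.0409 over RefSeq genes).

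Liver genes lay above control in 56 of 63 measured members, but none was called and the difference was that of BaP replicate 2. The list's median was 0.00845 in BaP replicate 1 and 0.75 in BaP replicate 2, against 0.12 and -0.12 in the control libraries, all as differences from the control mean. The liver fatty acid-binding protein gene fabp10a was at 159.6 and 247 CPM in BaP larvae, against 79.8 and 48.3 CPM in control larvae (log2 1.67, limma adjusted p = 0.0527), and it was called in the RefSeq table at 186 and 281 CPM in BaP larvae, against 93.7 and 57.0 CPM in control larvae (limma adjusted p = 0.0468). The retinol carrier gene rbp4 was at 1074 and 1084 CPM in BaP larvae and 753 and 602 CPM in control larvae (log2 0.68, limma adjusted p = 0.165), the carboxylesterase gene ces2 at 508 and 716 CPM in BaP larvae and 376 and 327 CPM in control larvae (log2 0.78, limma adjusted p = 0.166). The iron hormone gene hamp2 was at 5.78 and 4.25 CPM in BaP larvae, against 0.152 and 1.22 CPM in control larvae (log2 2.37, limma adjusted p = 0.109), where control replicate 1 held 2 reads. Both exposed libraries lay above both control libraries in each of the 4 genes. They were chosen by smallest p, and that choice favours this order.

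In muscle the oxygen store gene mb, myoglobin, was the 1 call among 66 members, where 0.381% of all genes were called higher. It was at 130.1 and 133 CPM in BaP larvae and 62.7 and 52.3 CPM in control larvae (log2 1.19, SE 0.13, limma adjusted p = 0.0133). The muscle list as a whole lay on both sides of control, 38 above and 28 below, with a median log2 difference of 0.09. The skeletal actin gene acta1a was at 433 and 473 CPM in BaP larvae, against 685 and 670.3 CPM in control larvae (log2 -0.58, limma adjusted p = 0.154), and the myosin-binding protein gene mybpc2b had a log2 difference of -0.64. Genes of the basic machinery mostly lay above control, without calls. All 82 cytosolic ribosomal protein genes lay above control with a median of 0.23, 18 without overlap (21.95%, where 25.8% of all genes lay higher without overlap), and control replicate 1 lay 0.15 above the control mean, so the difference was close to that between the controls. Of 82 oxidative phosphorylation genes 81 lay above control (median 0.28), 58 without overlap (70.7%), with cox5aa, a cytochrome c oxidase subunit gene, at 61.6 and 77.6 CPM in BaP larvae, against 35.7 and 37.3 CPM in control larvae (log2 0.91, limma adjusted p = 0.0611). The log2 difference of cox5aa ran from 0.199 to 1.08 over the alternative settings and annotations. Of 49 proteasome genes 47 lay above control (median 0.26), 38 without overlap (77.6%). Neuron genes lay below control in 32 of 50 members (median -0.15), and their median was -0.03 in BaP replicate 1 and -0.21 in BaP replicate 2.

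**Figure D4:**
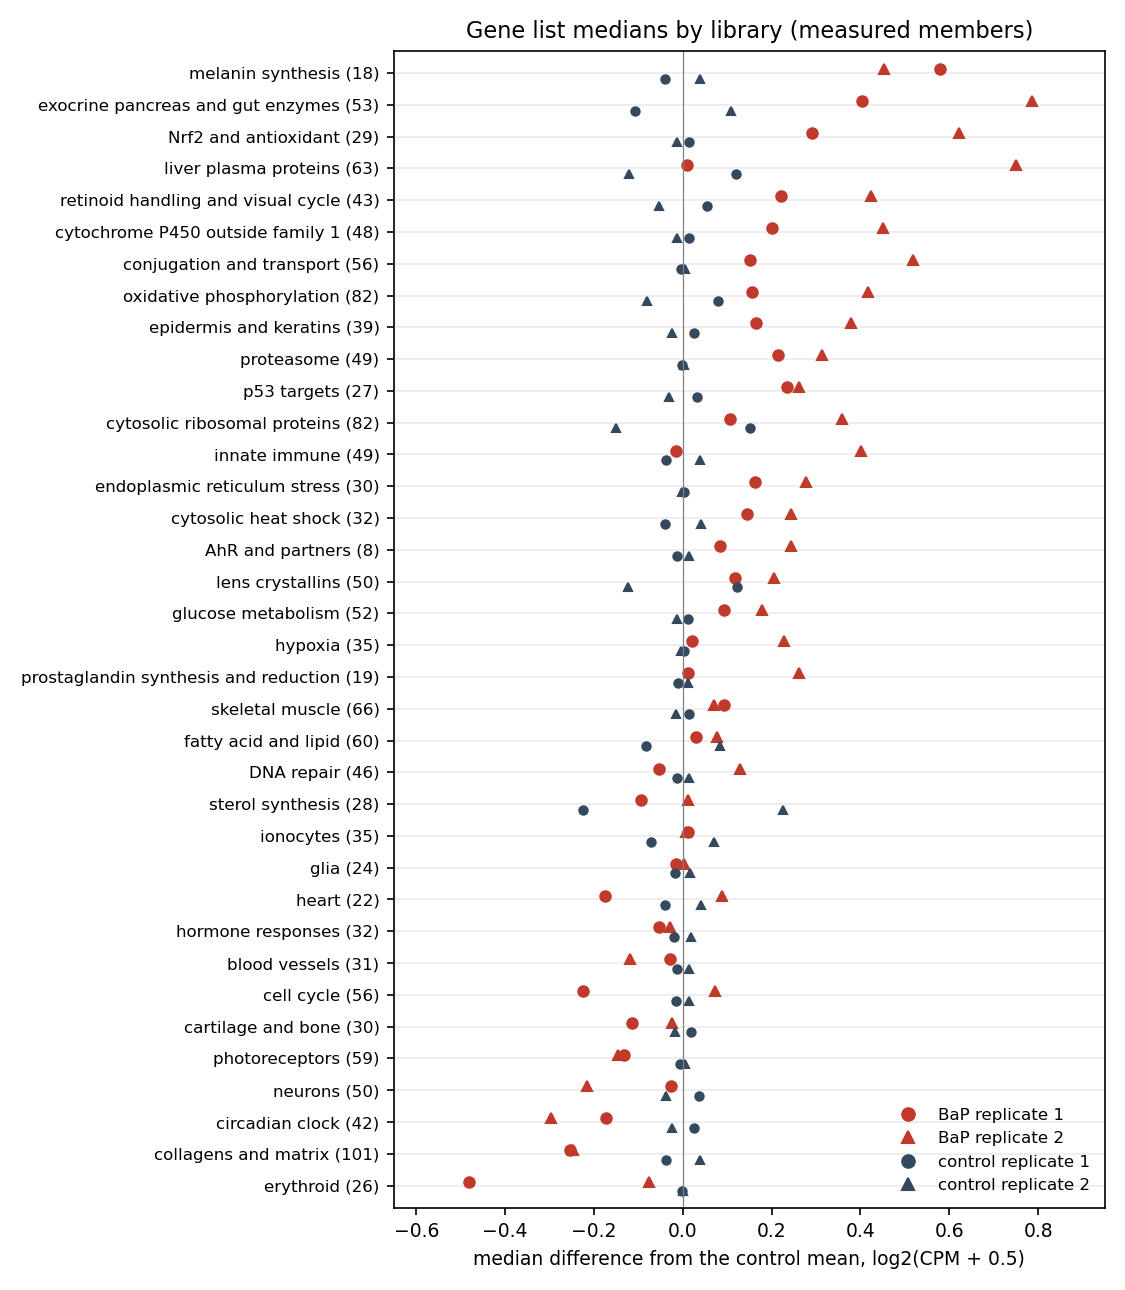
Medians of 36 gene lists by library. The horizontal axis is the median over a list's measured members of the difference from the control mean on the log2(CPM + 0.5) scale, with the BaP libraries drawn above the control libraries on each line, circles for replicate 1 and triangles for replicate 2, and the number of members in brackets. Melanin genes, exocrine pancreas and gut genes and antioxidant genes have both BaP libraries at the right, and collagens and clock genes both at the left. Liver, innate immune, erythroid, cell cycle and neuron lists have BaP libraries that lie apart.

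Of the 80 called genes 41 were on no list. Several of the higher genes named by size have roles outside these groups. DHRS13 (2 of 5), a short-chain dehydrogenase gene, was at 108 and 131 CPM in BaP larvae, against 27.7 and 38.0 CPM in control larvae (log2 1.86, SE 0.18, limma adjusted p = 0.00645). The fibrocystin-like gene pkhd1l1 was at 57.9 and 56.4 CPM in BaP larvae, against 17.8 and 20.3 CPM in control larvae (log2 1.56, SE 0.14, limma adjusted p = 0.00491). The matrix protein gene crtac1a was at 27.3 and 25.8 CPM in BaP larvae, against 8.88 and 8.28 CPM in control larvae (log2 1.58, SE 0.17, limma adjusted p = 0.0102). These 3 were called without each single library with the scaling factors kept, crtac1a not without control replicate 2 when they were recomputed, and the 2 exposed libraries of pkhd1l1 and crtac1a were nearly equal. The membrane protein gene tmem130 and the tripartite motif gene trim108 were called as well, with log2 differences of 1.49 and 1.93 (SE 0.19 and 0.28). The call was lost in 3 of 18 alternative settings for tmem130 and 6 of 17 for trim108. The other 27 called genes were all higher, with log2 differences between 0.89 and 2.33. Among them, and named after their values were seen, were tspo, which encodes a mitochondrial protein that binds cholesterol and porphyrins, at 60.3 and 84.5 CPM in BaP larvae, against 31.4 and 27.6 CPM in control larvae, and the chemokine gene ccl1, at 3.08 and 3.65 CPM in BaP larvae, against 0.152 and 0.405 CPM in control larvae. Both control libraries held few reads of ccl1. The call was lost in 3 of 18 alternative settings for tspo and 6 of 17 for ccl1.

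Transcript values showed that the isoforms of a called gene did not always move together. Of the called genes, 24 had 2 or more transcripts listed, and in 10 of these the transcripts differed by over 1 in log2 difference. Among the Ensembl transcripts 1 of 26036 was called, higher in BaP larvae (0.00384%), so the isoforms are described without a test. Of the RefSeq transcripts 50 of 12947 were called (0.386%), 45 higher (0.348%) and 5 lower (0.0386%). For cyp1b1, transcript cyp1b1-002 was at 20.9 and 20.1 CPM in BaP larvae, against 1.06 and 0.733 CPM in control larvae, and cyp1b1-201 at 6.07 and 6.03 CPM in BaP larvae, against 1.37 and 0.948 CPM in control larvae. Both lay above control, with log2 differences of 3.92 for cyp1b1-002 and 1.99 for cyp1b1-201. In the controls both isoforms held few reads and lay close, and values are not corrected for length, so their order there is not read. For postna, transcript postna-201 was at 25.7 and 26.4 CPM in BaP larvae, against 66.3 and 58.7 CPM in control larvae, while postna-002, at 14.2 and 19.5 CPM in BaP larvae and 21.7 and 15.1 CPM in control larvae, overlapped. For krt15, krt15-001 was at 142 and 135 CPM in BaP larvae, against 302 and 221 CPM in control larvae, and krt15-201 at 8.82 and 6.46 CPM in BaP larvae, against 26.0 and 46.5 CPM in control larvae. The third isoform, krt15-202, was at 3.27 and 3.62 CPM in BaP larvae, against 8.07 and 8.35 CPM in control larvae, and all 3 lay lower without overlap. For gsto2, gsto2-001 was at 56.3 and 86.8 CPM in BaP larvae, against 24.5 and 23.3 CPM in control larvae, and gsto2-002 at 19.1 and 15.03 CPM in BaP larvae, against 17.0 and 14.1 CPM in control larvae, where the groups overlapped. The difference of ugt1b4 lay in ugt1b4-204, at 84.5 and 115 CPM in BaP larvae and 32.8 and 28.2 CPM in control larvae. For mb, the isoform mb-004 was at 10.24 and 12.1 CPM in BaP larvae, against 0.996 and 1.23 CPM in control larvae.

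Under the RefSeq annotation 64 of 12415 genes were called (0.516%), 59 higher (0.475%) and 5 lower (0.0403%). Of these 52 carried a symbol of the Ensembl table, and 46 were called in both. The other 12 were among 2343 genes listed by RefSeq symbol only, 0.512% of them. Such a gene can be listed in the Ensembl table under another symbol, so these 12 are not counted as further genes. Besides ahrra, ugt1b1, zgc:194355 and the 2 lower genes, they included the heat shock gene hsp70, at 99.3 and 173 CPM in BaP larvae, against 45.02 and 47.3 CPM in control larvae (log2 1.49, SE 0.23, limma adjusted p = 0.0443). The interferon-induced membrane protein gene ifitm1 was at 63.4 and 77.1 CPM in BaP larvae, against 30.6 and 29.0 CPM in control larvae (log2 1.22, SE 0.15, limma adjusted p = 0.0149). The elastase gene zgc:92041, now cela1.6, was at 499.9 and 528 CPM in BaP larvae, against 274 and 315 CPM in control larvae (log2 0.81, SE 0.13, limma adjusted p = 0.0458). Whether it is the same gene as the called Ensembl entry CELA1 (1 of 8), with a log2 difference of 0.85, was not tested. Called in the RefSeq table and not in the Ensembl table were 6 genes listed in both, chosen here after their values were seen. They were ctrb1, tfr1b and fabp10a, described above, dnajb1b, the dehydrogenase gene dhrs13l1 and mpx, the myeloperoxidase gene that marks neutrophils. The RefSeq table put it at 104 and 182 CPM in BaP larvae, against 17.7 and 23.4 CPM in control larvae (limma adjusted p = 0.00373 over RefSeq genes), where the Ensembl table had 12.8 and 18.5 CPM in BaP larvae and 12.8 and 19.04 CPM in control larvae. The RefSeq transcript table split this symbol into 2 entries, with 14.6 and 21.1 CPM and 88.9 and 161 CPM in BaP larvae, against 14.8 and 22.4 CPM and 2.94 and 0.937 CPM in control larvae. The first entry overlapped between the groups as in the Ensembl table, the other carried the whole difference, and what it covers is not given in the sources used here, so the RefSeq value is not read as a change in mpx.

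The exposed libraries differed from each other more than the controls did, and mostly through genes lower in BaP replicate 2. With 1 library on each side no test applies. Of the 777 genes over 2-fold apart, 220 (1.16%) were higher and 557 (2.95%) lower in BaP replicate 2, where the control pair had 154 (0.814%) and 98 (0.518%). The SD of the log2 difference was 0.388 between the exposed libraries and 0.276 between the controls, over the 13520 genes with a mean of at least 5 CPM. Of the 80 called genes 1 was over 2-fold apart, and their median size of difference was 0.22, against 0.24 over all genes. The test favours genes whose exposed libraries are close, so these values say nothing of how the pair bears on the calls. Compared with the control mean, 285 genes were over 2-fold lower in BaP replicate 2 while within 1.2-fold of it in BaP replicate 1, and 80 were over 2-fold higher. The reverse, a shift held by BaP replicate 1 alone, was found in 14 genes lower and 9 higher.

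**Figure D5:**
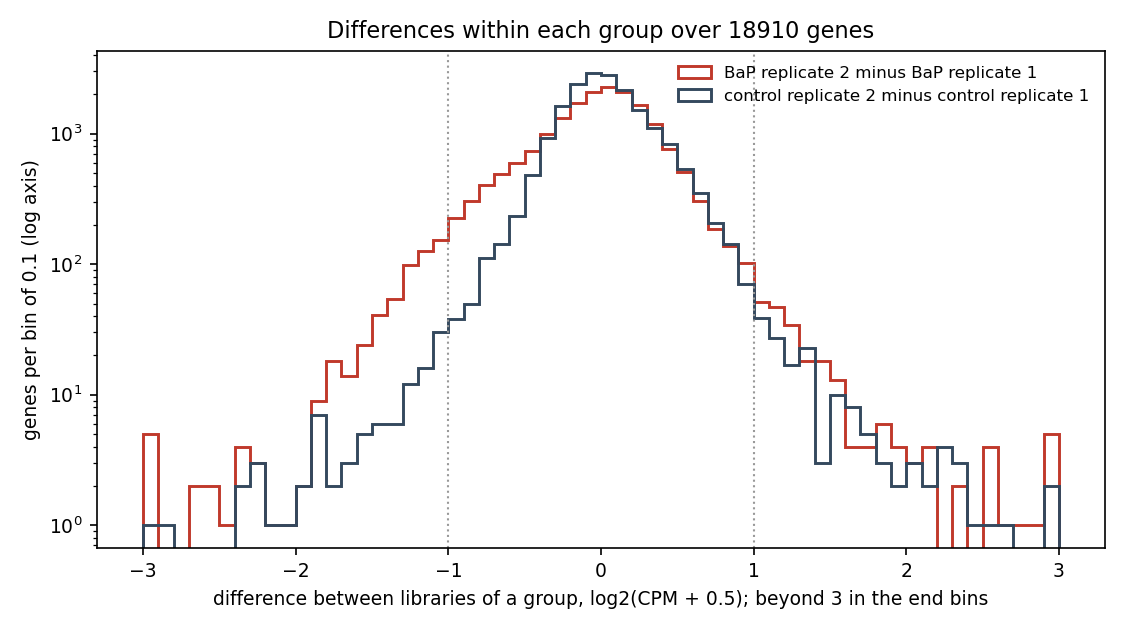
Differences between libraries of a group over 18910 genes. The horizontal axis is the log2(CPM + 0.5) difference of replicate 2 minus replicate 1, the vertical axis the number of genes per bin on a log axis, and dotted lines mark a 2-fold difference. The BaP pair has a wider left side than the control pair, with 557 genes against 98 beyond the left dotted line, while the right sides are close, with 220 genes against 154.

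Genes higher in BaP replicate 2 included plasma protein and immune genes. The metalloproteinase inhibitor gene timp2b was at 9.76 CPM in BaP replicate 1 and 51.5 CPM in BaP replicate 2, against 10.5 and 13.0 CPM in control larvae. The immune-responsive gene irg1l, an itaconate-synthesis gene of inflamed epidermis and macrophages, was at 8.54 CPM in BaP replicate 1 and 40.8 CPM in BaP replicate 2, against 12.2 and 10.5 CPM in control larvae. The apolipoprotein gene apoea was at 289.9 CPM in BaP replicate 1 and 844 CPM in BaP replicate 2, against 453 and 505 CPM in control larvae. In timp2b and irg1l only BaP replicate 2 left the range of the other 3 libraries by over 2-fold, while for apoea the exposed libraries lay on either side of the controls. The complement gene C4A was at 19.3 CPM in BaP replicate 1 and 53.5 CPM in BaP replicate 2, against 38.2 and 32.8 CPM in control larvae, and the complement regulator CFI at 75.3 CPM in BaP replicate 1 and 174 CPM in BaP replicate 2, against 114 and 88.7 CPM in control larvae. The angiotensinogen gene agt was at 26.1 CPM in BaP replicate 1 and 66.6 CPM in BaP replicate 2, against 42.3 and 42.7 CPM in control larvae. These 3 products of the liver shared the order of apoea, with BaP replicate 1 below and BaP replicate 2 above both controls. The galectin gene lgals1l1 differed in a further way, at 18.2 CPM in BaP replicate 1 and 64.1 CPM in BaP replicate 2, against 65.5 and 53.8 CPM in control larvae, so that BaP replicate 1 was the library apart. Also among the 10 highest were thy1, gcgb, cbx7a, slc34a2b and SERPING1, with differences between 1.41 and 1.66 on the log2 scale.

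On the other side, fem1a had the lowest difference of BaP replicate 2 from BaP replicate 1 among the genes named by size. The ubiquitin ligase adaptor gene fem1a was at 16.6 CPM in BaP replicate 1 and 2.90 CPM in BaP replicate 2, against 17.8 and 19.8 CPM in control larvae. The ammonia transporter gene rhcga of ionocytes was at 62.0 CPM in BaP replicate 1 and 17.2 CPM in BaP replicate 2, against 54.5 and 48.9 CPM in control larvae. The histone demethylase gene KDM5A was at 42.2 CPM in BaP replicate 1 and 14.8 CPM in BaP replicate 2, against 37.5 and 42.2 CPM in control larvae. In each of them BaP replicate 2 alone was low and BaP replicate 1 lay with or near the controls. The kinesin gene KIF3A (1 of 2), the methyl-binding domain gene MBD5 and the neuronal genes APP (3 of 3), DPYSL2 (1 of 2), RELN (4 of 4) and BSN (2 of 2) followed, with differences between -1.72 and -1.39, and the bZIP factor gene jdp2, the remaining one of the 10 lowest, was at -1.44. Among neuron markers elavl4 was at 82.5 CPM in BaP replicate 1 and 44.99 CPM in BaP replicate 2, against 96.9 and 104 CPM in control larvae, and the synaptic vesicle gene vamp2 at 46.2 CPM in BaP replicate 1 and 26.4 CPM in BaP replicate 2, against 52.1 and 59.15 CPM in control larvae.

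By list, BaP replicate 2 lay above BaP replicate 1 in 57 of 63 liver genes (median difference 0.68), 49 of 56 cell cycle genes (0.32), 22 of 26 erythroid genes (0.34), 37 of 49 innate immune genes (0.32), 79 of 82 ribosomal protein genes (0.24) and 78 of 82 oxidative phosphorylation genes (0.25). It lay above in 9458 of the 18910 genes. The ribosomal protein list differed as much between the controls, by -0.30. BaP replicate 2 lay above in 7 of 50 neuron genes (-0.21) and 4 of 18 melanin genes (-0.33), and in 51 of 101 collagen and matrix genes (0.00371). Among cell cycle genes the replication gene mcm3 was at 10.5 CPM in BaP replicate 1 and 18.2 CPM in BaP replicate 2, against 26.5 and 23.8 CPM in control larvae, and the checkpoint gene mad2l1 at 17.0 CPM in BaP replicate 1 and 27.6 CPM in BaP replicate 2, against 18.6 and 18.9 CPM in control larvae. In mcm3 both exposed libraries lay below the controls, BaP replicate 1 the further, while in mad2l1 they lay on either side. The adhesion gene EPCAM of epithelia, at 297 CPM in BaP replicate 1 and 168 CPM in BaP replicate 2, against 146 and 149 CPM in control larvae, was highest in BaP replicate 1. The parts that depth, RNA quality, transcript length, clutch and tissue make-up had in the difference between the exposed libraries were not tested.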

How the data were processed

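RNA of pooled whole zebrafish larvae was isolated with RNAzol and RNeasy columns and made into libraries with the TruSeq RNA kit, per the labels' protocols. Whether reads were counted by strand is not given in the sources used here, so overlapping genes could share reads. The deposited values are CPM made by the authors, with no correction for gene length, so every library has the same total. The genome build was Zv9 and the tools TopHat, Partek and edgeR were used in steps that are not specified, with no versions, per the submitters' processing notes, and the Ensembl annotation is release 70, per the file headers. Groups and replicate numbers came from the labels, and no value column was left unmapped (0 columns). The CPM stepped by a constant amount in each library, but 51.5% to 65.3% of the Ensembl gene values were whole multiples of that step within 0.05 reads (56.6% to 70.5% in the RefSeq gene table), so reads were not recovered and no count test was run.

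CPM were scaled between the 4 libraries of 96 hpf by TMM factors, with a trim of 30% on the log ratios and 5% on the levels. The log2(CPM + 0.5) values were tested with limma 3.58.1 in R 4.3.3 (linear model on group, empirical Bayes with a trend), with Benjamini-Hochberg adjustment over every listed gene of a table, no filter on low values and a threshold of 0.05. A fold change on this scale understates the change of genes with low values. Counts and summaries were made with Python 3.11.15, pandas 2.3.3 and numpy 2.4.6, and the model code was tested on simulated data. With 2 libraries against 2, an exact permutation test of a single value cannot go below 0.333 (two-sided), so no such test is given.

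The members and the 37 gene lists were chosen with earlier results of these data known. Of 1928 list symbols, 1632 matched the Ensembl table, 1429 by symbol, 136 by a synonym of the RefSeq gene table for zebrafish and 67 in upper case, and 296 were unmatched. Genes named are every measured AhR target, every gene called lower, the 25 genes called higher with the largest difference among those with a mean of at least 2 CPM and no clone name, called list members, up to 4 members per list by smallest p, the 15 lower genes with the smallest p, and, between the BaP libraries, the 10 highest and 10 lowest differences among genes with a mean of at least 10 CPM and controls within 0.5 on the log2 scale, with up to 3 members per list. Exceptions are marked where they occur. Alternatives were median-ratio scaling, CPM as deposited, pseudocounts of 0.1 and 2, a mean of at least 5 CPM, other variance models, the other 3 tables, a replicate block and each library left out. No sequences or promoters were used here.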

Additional observations from a re-analysis of the deposited data

How the results depend on the processing

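The 80 calls (72 higher, 8 lower in BaP larvae) were a similar number with median-ratio scaling (76), pseudocounts of 0.1 (69) and 2 (87), a robust spread (76) and genes with a mean of at least 5 CPM (69, though 4 lower). On CPM as deposited 38 genes were called (33 higher, 5 lower). Without a trend in the variance model 2 were called, both higher and 0 lower. The RefSeq gene table gave 64 calls (59 higher, 5 lower), the RefSeq transcripts 50 (45 higher, 5 lower) and the Ensembl transcripts 1 (1 higher, 0 lower, 26036 transcripts tested). The cause of these differences was not tested. Leaving out each library in turn gave 93 to 3425 calls, 80 to 1469 higher and 6 to 1956 lower. The highest numbers were those without BaP replicate 1, and without BaP replicate 2 the numbers were 232 calls, 176 higher and 56 lower. In these fits the lone library is assumed to vary like the pair of the other group. With the scaling factors recomputed on the 3 libraries left, a choice made after seeing the data, there were 2838 calls without BaP replicate 1 (1114 higher, 1724 lower), 232 without BaP replicate 2 (176 higher, 56 lower), 93 without control replicate 1 (80 higher, 13 lower) and 24 without control replicate 2 (24 higher, 0 lower). Of the 80 genes, 35 (33 higher) were called under all of the other scalings, pseudocounts, filters, the robust spread, the replicate block and each library left out with the factors kept, on the Ensembl gene table, and 20 of the 80 were called without control replicate 2 with factors recomputed.

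The deviations of same-numbered libraries from their group means correlated at -0.257 over genes, so the numbers were not taken as pairs. A replicate block, which leaves 1 residual degree of freedom, gave 134 calls (116 higher, 18 lower). The crossed pairing, added after seeing the data, gave 2035 calls (884 higher, 1151 lower).

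Between the exposed libraries, the 777 genes over 2-fold apart became 1225 with a pseudocount of 0.1, 220 with a pseudocount of 2 and 326 among genes with a mean of at least 5 CPM. Against 252 for the controls in the reported setting, these alternatives gave 452, 77 and 80 control genes. Directions turned for ugt1ab (-0.54 in the RefSeq gene table), cry2a (-0.052 in the RefSeq gene table) and cyp1d1. For cyp1d1 the log2 difference was -0.041 on CPM as deposited, -0.0074 in the RefSeq gene table, -0.18 to 0.27 when each library was left out, and -0.047 without control replicate 1 and -0.18 without BaP replicate 2 with factors recomputed. None of these was called. List medians close to 0 also turned: on CPM as deposited the skeletal muscle median was -0.00087 and the DNA repair median -0.049. Genes with few reads, such as ahrra, cyp2x7, slc2a5, 5_8S_rRNA and CABZ01045617.2, have fold changes that depend on the pseudocount. Promoter motifs were not run because no promoter sequences were used here, and values of single genes were not compared with the transcript tables because their entries do not match one to one.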
